A study of Homo sapiens with 6 samples.

Results

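Complex I (NADH:ubiquinone oxidoreductase) is built from subunits encoded in the nucleus and in the mitochondrial genome, and 36 of its nuclear-encoded subunits were followed across a knockdown of HMOX1, the gene for heme oxygenase-1. The 36 genes were chosen by name, as rows of the deposited table whose Ensembl identifier maps to a listed subunit symbol, and make up 36 of 20263 genes. The rule uses no measured value, though the list was drawn up with earlier results of these data known. All 36 were present and all passed the filter on low counts, which kept 13769 genes, so none was lost or gained through it.

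The cells were AsPC-1, an established human pancreatic ductal adenocarcinoma line. The groups were HMOX1si1 and HMOX1si2, each transfected with 1 of a pair of siRNAs against HMOX1, and siControl, transfected with a negative control siRNA, with 2 libraries in each. All 3 groups were transfected with jetPRIME, and an untransfected group and the hours between transfection and harvest were not given in the labels. The knockdown is transient and in 1 cell line. The labels call the libraries of a group replicates without saying whether they came from separate cultures, so the p-values measure the spread between these libraries, which may be technical.

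Complex I sits in the inner mitochondrial membrane, where it takes electrons from NADH, passes them along a flavin and a chain of iron-sulfur clusters to ubiquinone, and pumps protons. It has the shape of an L. The matrix arm holds the redox chemistry in its core subunits, which have bacterial counterparts, and the membrane arm pumps the protons through core subunits that are encoded in mitochondrial DNA. The accessory subunits surround this core and are needed for its assembly or stability. Heme oxygenase-1 breaks heme down to biliverdin, iron and carbon monoxide. Complex I holds iron-sulfur clusters but no heme.

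Total counts per library ranged between 36144330 and 45068660, and 14999 to 15220 genes were above 0. HMOX1 itself had 2.43 and 2.80 CPM (counts scaled to the library size, after TMM) in HMOX1si1 libraries, 1.27 and 1.17 CPM in HMOX1si2 libraries, and 9.06 and 8.52 CPM in siControl libraries. It fell in both knockdown groups, with log2 fold changes of -1.75 and -2.85 and adjusted p of 0.00618 and 0.00951 by edgeR. HMOX1 was lower with HMOX1si2 than with HMOX1si1, with a log2 difference of -1.10 and an adjusted p of 0.0284 by edgeR. Counts of the 2 libraries of a group were farther apart than counting error gives (chi-square of 39.1 to 87.3 per degree of freedom). All 8 epithelial markers were above 0 in every library, while summed markers of fibroblasts reached at most 126 CPM, of blood cells at most 11.4 CPM and of endothelium at most 1.71 CPM. CD3E, HBB and TEK were at 0 in every library. The summed epithelial markers were 10075 and 10716 CPM in HMOX1si1, 14175 and 14015 CPM in HMOX1si2, and 14299 and 16182 CPM in siControl, and their part in the results below was not tested.

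Nearly all subunits had lower levels in the knockdown groups than in siControl, and few passed the test singly. Against siControl, 35 of 36 subunits had a fold change below 0 on the log2 scale with HMOX1si1 and 36 of 36 with HMOX1si2, where 50.1% and 49.8% of all genes tested did. The median log2 fold change over the 36 was -0.44 with HMOX1si1, which is 73.7% of the control level, and -0.31 with HMOX1si2, which is 80.9%. Without replicate 2 of HMOX1si2 the HMOX1si2 median was -0.49, the lowest value with 1 library left out. As log2 CPM relative to the siControl mean, the subunit median was -0.49 in replicate 1 of HMOX1si2 and -0.21 in replicate 2. Over all genes tested both medians were 0.00. The 2 comparisons share their siControl libraries. In such bulk samples, fewer cells of a type and less RNA per cell cannot be told apart.

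With HMOX1si1, 4 of 36 subunits fell at an adjusted p under 0.05 (quasi-likelihood test of edgeR, Benjamini-Hochberg adjustment over all genes tested) and none rose. That is 11.1% of the subunits, where 5.01% of all genes tested were called lower and 5.02% higher. The 4 were NDUFB1, NDUFC2, NDUFA11 and NDUFA13, all accessory subunits of the membrane arm. At an unadjusted p under 0.05, 21 subunits (58.3%) were lower, where 15.0% of all genes were. DESeq2 called 14 subunits lower and 9.21% of all genes. The 4 calls did not outlast the removal of any library in this comparison. Without either siControl library or either HMOX1si1 library, the median log2 fold change of the subunits lay between -0.56 and -0.33. Each of these fits leaves a lone library in a group. They also called fewer of all genes than the full fit, so the loss of calls was not confined to the subunits.

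With HMOX1si2, edgeR called 0 of 36 subunits, where 2.67% of all genes were called lower and 3.06% higher. At an unadjusted p under 0.05, 10 subunits (27.8%) were lower, against 12.2% of all genes, and DESeq2 called 7 lower, against 6.53% of all genes. The nearest to the threshold was NDUFB8, with an adjusted p of 0.0549 by edgeR's test.

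On the average of both siRNAs, 4 subunits fell (NDUFB1, NDUFC2, NDUFA11 and NDUFB8), and none rose, where 4.93% of all genes were called lower and 5.16% higher. The median log2 fold change was -0.36, and 36 of 36 were below 0, where 50.5% of all genes were. At an unadjusted p under 0.05, 21 subunits were lower, against 15.7% of all genes, and DESeq2 called 13, against 9.25%. Without either siControl library, edgeR called 0 subunits and 0 of all genes on this average, with 16 and 5 subunits at an unadjusted p under 0.05. It also called 0 without replicate 2 of HMOX1si1, with 16 at an unadjusted p under 0.05. It called NDUFB8 alone without replicate 1 of HMOX1si1, NDUFB1 alone without replicate 1 of HMOX1si2, and 10 subunits without replicate 2 of HMOX1si2.

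The siRNAs were also compared with each other. HMOX1 itself was lower with HMOX1si2, while the subunit median was lower with HMOX1si1. How the level of HMOX1 relates to the subunits was not tested. For HMOX1si2 minus HMOX1si1, 29 of 36 subunits had a positive log2 difference, with a median of 0.13, where 49.5% of all genes were below 0. However, no subunit passed edgeR's test, where 3.62% of all genes did in either direction. The unadjusted p was under 0.05 for NDUFB1 and NDUFS8, both higher with HMOX1si2, against 10.6% of all genes, and DESeq2 called 0, against 10.2%. Without replicate 2 of HMOX1si2 the median of this difference was -0.05.

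**Figure D1:**
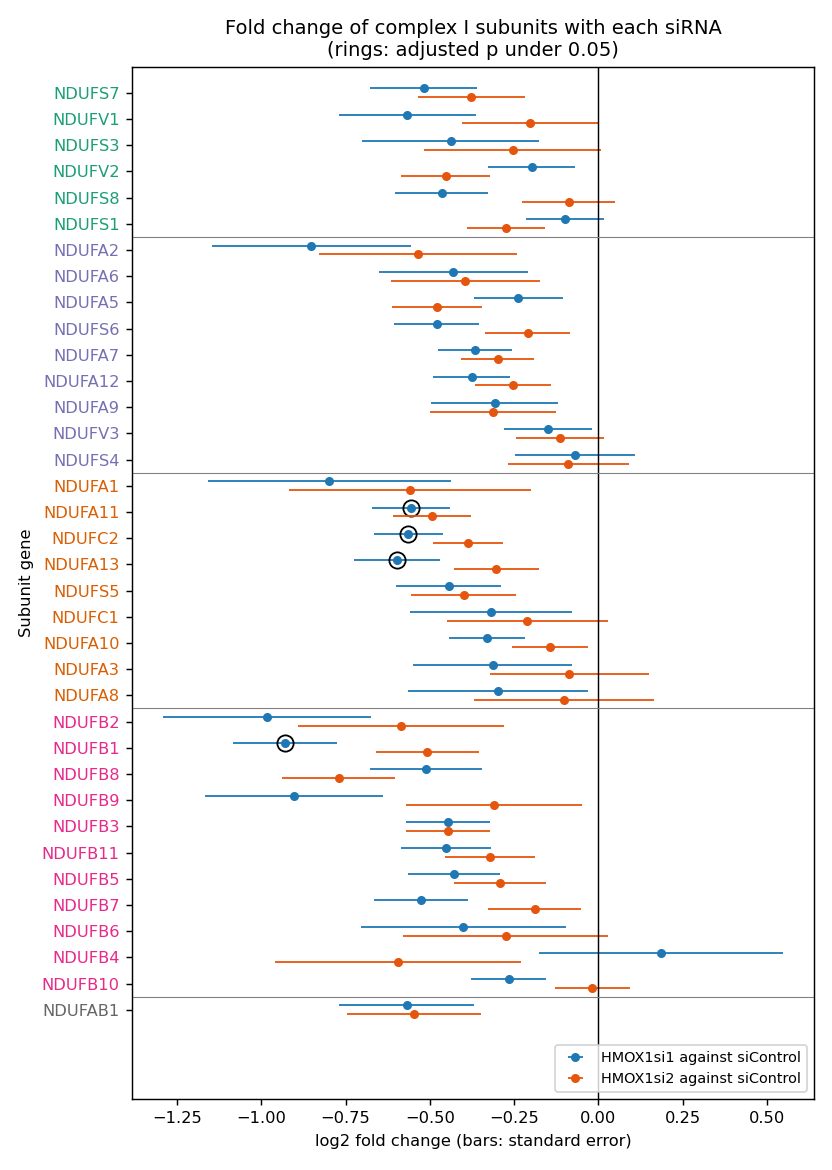
Log2 fold change (horizontal axis; points, with bars of 1 standard error from edgeR) of each of the 36 subunits with HMOX1si1 and with HMOX1si2 against siControl, grouped from top to bottom as core, other matrix arm, proximal membrane arm, distal membrane arm and acyl carrier protein subunits. All points but that of NDUFB4 with HMOX1si1 lie left of 0, and the 4 ringed points are the calls with HMOX1si1.

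The plot of fold changes by subunit shows that the core subunits lie in the same range as the accessory ones. The median log2 fold changes on the average of both siRNAs were -0.34 for the 6 core subunits, -0.33 for the 9 other matrix arm subunits, -0.42 for the 9 of the proximal membrane arm and -0.39 for the 11 of the distal membrane arm. NDUFAB1, the acyl carrier protein present in both arms, had -0.56. Differences between these classes were not tested.

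The core subunits carry the cofactors. None of the 6 passed edgeR's test in any contrast, and at an unadjusted p under 0.05 HMOX1si1 gave 3 of 6, HMOX1si2 gave 1 and the average gave 2, all lower. Of all genes, 15.0%, 12.2% and 15.7% were lower at that p, so the count with HMOX1si2 (16.7%) is near the share over all genes. DESeq2 called NDUFS7 and NDUFS8 with HMOX1si1, NDUFV2 with HMOX1si2 and NDUFS7 on the average.

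NDUFV1, which binds NADH and the flavin, had 106 and 88.1 CPM in HMOX1si1, 101 and 149 CPM in HMOX1si2, and 135 and 153 CPM in siControl. NDUFV2, which holds an iron-sulfur cluster beside it, had 74.2 and 66.2 CPM in HMOX1si1, 52.9 and 64.7 CPM in HMOX1si2, and 77.2 and 83.9 CPM in siControl. Both subunits were below the control range in both HMOX1si1 libraries, but NDUFV1 in replicate 2 of HMOX1si2 lay between the siControl libraries. The log2 fold changes of NDUFV1 were -0.57 ± 0.20 (SE) with HMOX1si1 and -0.20 ± 0.20 with HMOX1si2, with adjusted p of 0.124 and 0.561 by edgeR. Those of NDUFV2 were -0.20 ± 0.13 and -0.45 ± 0.13, with adjusted p of 0.344 and 0.101. The larger change of NDUFV1 was thus with HMOX1si1 and that of NDUFV2 with HMOX1si2, and neither difference between the siRNAs passed (adjusted p of 0.375 and 0.340).

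NDUFS1, the largest subunit and a carrier of several iron-sulfur clusters, had 149.8 and 133 CPM in HMOX1si1, 115 and 135 CPM in HMOX1si2, and 153 and 149.8 CPM in siControl. Replicate 1 of HMOX1si1 was at the level of the lower siControl library, and the log2 fold changes were -0.10 ± 0.12 and -0.27 ± 0.12. NDUFS3, which forms part of the quinone module without a cofactor of its own, had 52.3 and 35.8 CPM in HMOX1si1, 38.9 and 61.3 CPM in HMOX1si2, and 55.7 and 63.7 CPM in siControl. The 2 libraries of each knockdown group were far apart for NDUFS3, and the adjusted p values were 0.305 and 0.572 by edgeR.

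NDUFS7, which holds the last iron-sulfur cluster before ubiquinone, had 52.1 and 45.2 CPM in HMOX1si1, 47.1 and 60.2 CPM in HMOX1si2, and 63.8 and 75.6 CPM in siControl. All 4 knockdown libraries were below both siControl libraries, with log2 fold changes of -0.52 ± 0.16 and -0.38 ± 0.16 and adjusted p of 0.0902 and 0.202 by edgeR. NDUFS8, which holds a pair of iron-sulfur clusters, had 47.5 and 44.9 CPM in HMOX1si1, 66.5 and 53.5 CPM in HMOX1si2, and 59.3 and 68.2 CPM in siControl. Here HMOX1si1 was below siControl in both libraries (log2 fold change -0.47 ± 0.14, adjusted p of 0.0836 by edgeR), while replicate 1 of HMOX1si2 lay inside the control range.

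**Figure D2:**
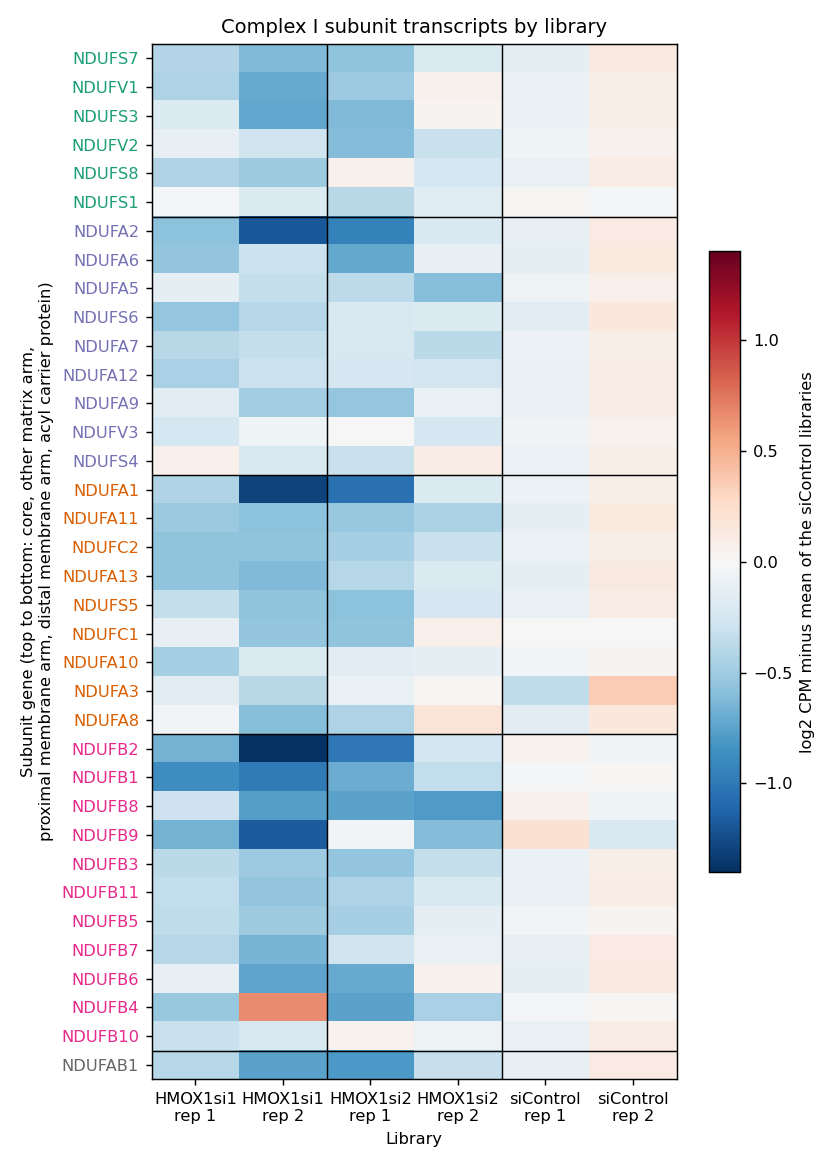
Log2 CPM of each of the 36 subunits in each of the 6 libraries, relative to the mean of the siControl libraries (colour scale; rows are subunits grouped by place in the complex, columns are libraries). The lowest values fall mostly in replicate 2 of HMOX1si1 and replicate 1 of HMOX1si2, and NDUFB4 in replicate 2 of HMOX1si1 is the exception at 0.67.

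The other 9 subunits of the matrix arm had no call by edgeR in any contrast. At an unadjusted p under 0.05, 4 were lower with HMOX1si1, 2 with HMOX1si2 and 5 on the average, and DESeq2 called 2, 1 and 2. Of all genes, 15.0%, 12.2% and 15.7% were lower at that unadjusted p, and DESeq2 called 9.21%, 6.53% and 9.25% lower. NDUFA5, an accessory subunit of the arm, had 27.4 and 23.9 CPM in HMOX1si1, 23.3 and 20.01 CPM in HMOX1si2, and 28.7 and 31.7 CPM in siControl. NDUFS6, which binds zinc at the base of the NADH module, had 55.4 and 61.0 CPM in HMOX1si1, 69.7 and 70.6 CPM in HMOX1si2, and 72.7 and 89.5 CPM in siControl. Neither gene's groups overlapped with siControl. The log2 fold changes of NDUFA5 were -0.24 ± 0.13 and -0.48 ± 0.13, and those of NDUFS6 were -0.48 ± 0.13 and -0.21 ± 0.13. The lowest adjusted p among these 4 was 0.0649, for NDUFS6 with HMOX1si1 (edgeR).

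NDUFA2, a thioredoxin-like subunit, had the lowest fold change of the matrix arm on the average, at -0.69 ± 0.25, and its adjusted p was 0.122 by edgeR. NDUFA6, a member of the LYR family that binds an acyl carrier protein, had -0.41 ± 0.19. NDUFA7 and NDUFA12 had -0.33 ± 0.09 and -0.31 ± 0.10, and NDUFA9, which has a dehydrogenase-like fold, had -0.31 ± 0.16. NDUFV3 and NDUFS4 were closest to 0, with -0.13 ± 0.11 and -0.08 ± 0.15. NDUFS4, a frequent site of inherited complex I deficiency, ranged from 23.5 to 31.4 CPM over the knockdown libraries, a range that takes in both siControl values of 27.5 and 30.8 CPM.

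The proximal membrane arm, next to the matrix arm, held 3 of the 4 calls with HMOX1si1. NDUFC2 (ENSG00000151366, chr11:78068304-78080219, minus strand, in GRCh38 from GENCODE 29), a small membrane subunit, had 57.7 and 57.8 CPM in HMOX1si1, 61.9 and 68.7 CPM in HMOX1si2, and 80.8 and 89.9 CPM in siControl. The replicates were close and the groups did not overlap. Its log2 fold changes were -0.56 ± 0.10 with HMOX1si1, -0.39 ± 0.10 with HMOX1si2 and -0.48 ± 0.09 on the average, with adjusted p of 0.0285, 0.0862 and 0.0299 by edgeR.

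NDUFA11 (ENSG00000174886, chr19:5891276-5904006, minus strand), a membrane subunit at the contact with complex III in the respiratory supercomplex, had 53.6 and 51.6 CPM in HMOX1si1, 53.5 and 56.6 CPM in HMOX1si2, and 70.4 and 84.5 CPM in siControl. The 4 knockdown libraries lay between 51.6 and 56.6 CPM, all below siControl. The log2 fold changes were -0.56 ± 0.12, -0.49 ± 0.12 and -0.53 ± 0.10 with HMOX1si1, with HMOX1si2 and on the average, with adjusted p of 0.0373, 0.0654 and 0.0306 by edgeR.

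NDUFA13 (ENSG00000186010, chr19:19515736-19529054, plus strand), also known as GRIM-19, had 34.7 and 33.4 CPM in HMOX1si1, 38.8 and 44.8 CPM in HMOX1si2, and 47.1 and 55.9 CPM in siControl. It fell with HMOX1si1, with a log2 fold change of -0.60 ± 0.13 and an adjusted p of 0.0391 by edgeR. With the counts of a same-strand readthrough model added, the log2 fold change was -0.50 ± 0.13 and the call was lost, at an adjusted p of 0.0592. With HMOX1si2 and the deposited counts alone the log2 fold change was -0.30 ± 0.13 and the adjusted p was 0.197. The difference between the siRNAs, 0.29 ± 0.13, did not pass (adjusted p of 0.260).

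NDUFS5, an intermembrane-space subunit with paired cysteine motifs, was among the 6 proximal subunits without a call by edgeR. Its log2 fold change on the average was -0.42 ± 0.13, with an adjusted p of 0.0938 by edgeR and 0.0384 by DESeq2. NDUFA1, needed early in assembly of the membrane arm, had a larger value of -0.68 ± 0.30 but a wide spread, with 64.1 and 34.8 CPM in HMOX1si1, 41.8 and 75.1 CPM in HMOX1si2, and 81.0 and 91.1 CPM in siControl. NDUFC1, NDUFA10, NDUFA3 and NDUFA8 had -0.26, -0.24, -0.20 and -0.20.

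The distal membrane arm held the largest fold changes. NDUFB1 (ENSG00000183648, chr14:92116122-92121917, minus strand), a small single-span subunit, had 10.2 and 9.38 CPM in HMOX1si1, 11.5 and 14.7 CPM in HMOX1si2, and 18.4 and 18.8 CPM in siControl. It was at 52.5% of the control level with HMOX1si1, a log2 fold change of -0.93 ± 0.15 with an adjusted p of 0.0224 by edgeR. With HMOX1si2 it had -0.51 ± 0.15 and an adjusted p of 0.109, and on the average -0.72 ± 0.13 and 0.0285. NDUFB1 was counted least of the 36, with 375 counts in the lowest library. It shares no exon with another annotated gene.

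NDUFB8 (ENSG00000166136, chr10:100523740-100530000, minus strand), a subunit whose protein is often used as a readout of assembled complex I, had 53.1 and 37.9 CPM in HMOX1si1, 38.5 and 37.5 CPM in HMOX1si2, and 67.6 and 62.2 CPM in siControl. All 4 knockdown libraries were below siControl, and 3 of them lay between 37.5 and 38.5 CPM. The log2 fold changes were -0.51 ± 0.17, -0.77 ± 0.17 and -0.64 ± 0.14 with HMOX1si1, with HMOX1si2 and on the average, with adjusted p of 0.101, 0.0549 and 0.0439 by edgeR. With the counts of a same-strand readthrough model added, the libraries had 58.0 and 41.8 CPM in HMOX1si1, 43.3 and 60.9 CPM in HMOX1si2, and 76.0 and 88.7 CPM in siControl, and the call on the average was lost (-0.69 ± 0.19, adjusted p of 0.0686 by edgeR).

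NDUFB2, another small subunit, had 37.4 and 22.7 CPM in HMOX1si1, 29.7 and 49.5 CPM in HMOX1si2, and 61.6 and 57.4 CPM in siControl. Its log2 fold change on the average, -0.79 ± 0.26, was the lowest of the 36, yet the distance between its libraries left the adjusted p at 0.104 by edgeR. NDUFB7, an intermembrane-space subunit with paired cysteine motifs, had 52.5 and 44.1 CPM in HMOX1si1, 57.3 and 64.7 CPM in HMOX1si2, and 63.9 and 75.2 CPM in siControl. Both HMOX1si1 libraries of NDUFB7 were below siControl, with a log2 fold change of -0.53 ± 0.14 and an adjusted p of 0.0651 by edgeR, and replicate 2 of HMOX1si2 lay inside the control range.

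NDUFB9 is an LYR protein that binds the acyl carrier protein. Its log2 fold changes were -0.90 ± 0.26 with HMOX1si1 and -0.31 ± 0.26 with HMOX1si2, and neither was called by edgeR. DESeq2 called the fall with HMOX1si1 (adjusted p of 0.00853). NDUFB3, NDUFB11, NDUFB5 and NDUFB6 had -0.45, -0.39, -0.36 and -0.34 on the average. NDUFB10, an intermembrane-space subunit, had -0.27 with HMOX1si1 and -0.02 with HMOX1si2. NDUFB4 stood apart through 1 library, with 16.7 and 38.3 CPM in HMOX1si1, 14.4 and 17.6 CPM in HMOX1si2, and 23.8 and 24.5 CPM in siControl. Replicate 2 of HMOX1si1 was thus above both siControl libraries and the other 3 knockdown libraries below them.

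NDUFAB1, the mitochondrial acyl carrier protein, also serves fatty acid synthesis in the mitochondrion. It had 60.6 and 47.7 CPM in HMOX1si1, 45.8 and 64.0 CPM in HMOX1si2, and 74.1 and 86.5 CPM in siControl. All 4 knockdown libraries were below siControl, the log2 fold change on the average was -0.56 ± 0.17 and the adjusted p was 0.0882 by edgeR.

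In 22 of 36 subunits (61.1%) all 4 knockdown libraries were below both siControl libraries, where 18.2% of all genes tested were. None of the 36 had all 4 knockdown libraries above both siControl libraries, where 18.7% of all genes tested did. Both HMOX1si1 libraries were below in 31 subunits, where 31.9% of all genes were, and both HMOX1si2 libraries in 23, where 28.1% were. The 22 were spread over the complex, with 3 of 6 core subunits, 6 of 9 other matrix arm subunits, 6 of 9 in the proximal membrane arm, 6 of 11 in the distal membrane arm and NDUFAB1.

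Within each knockdown group the libraries differed across many subunits at once. Replicate 2 of HMOX1si1 was the lowest of the 6 libraries for 17 subunits, replicate 1 of HMOX1si2 for 10, replicate 1 of HMOX1si1 for 7 and replicate 2 of HMOX1si2 for 2, and a siControl library was never lowest. The 36 subunits summed to 1804 and 1607 CPM in HMOX1si1, 1703 and 2012 CPM in HMOX1si2, and 2202 and 2435 CPM in siControl. The medians over the subunits, as log2 CPM relative to the siControl mean, were -0.40 and -0.55 in HMOX1si1, -0.49 and -0.21 in HMOX1si2, and -0.09 and 0.09 in siControl. Every knockdown library was therefore below both siControl libraries at the median, and the 2 libraries of HMOX1si2 were farther apart than those of the other groups. The cause of the difference between replicates was not tested.

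**Figure D3:**
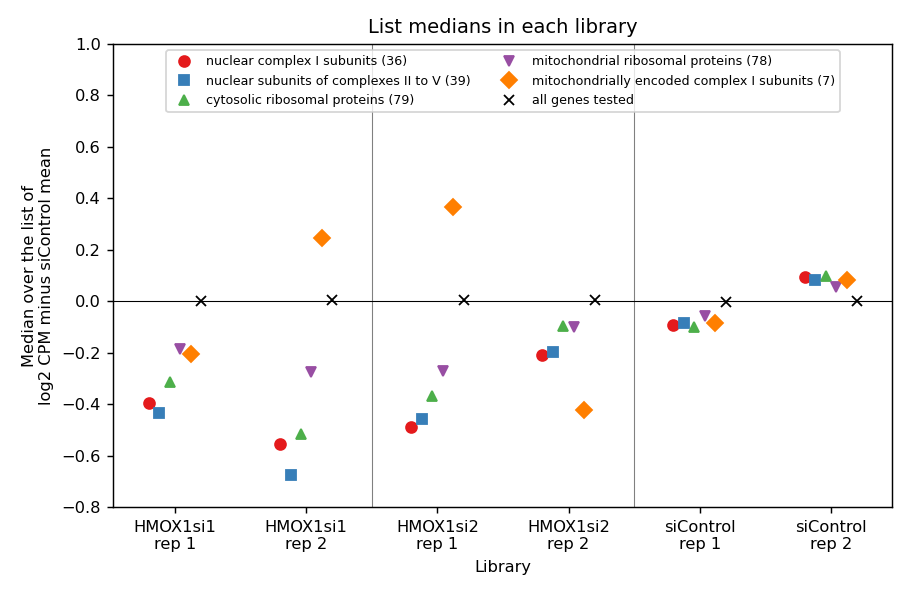
Median over each gene list of log2 CPM minus the siControl mean (vertical axis) in each of the 6 libraries (horizontal axis), with 1 marker per list. The nuclear-encoded complex I subunits lie at -0.40, -0.55, -0.49 and -0.21 in the knockdown libraries, and the mitochondrially encoded subunits lie on both sides of 0 within each knockdown group.

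The 7 complex I subunits encoded in mitochondrial DNA form the proton-pumping core of the membrane arm. The median log2 fold changes of these 7 were 0.03 with HMOX1si1, 0.02 with HMOX1si2 and 0.03 on the average. By edgeR 0 of 7 passed in any contrast, where 5.01%, 2.67% and 4.93% of all genes were called lower. DESeq2 called 0, where 9.21%, 6.53% and 9.25% of all genes were lower. In 7 genes, 0 calls is near these shares. No subunit of the 7 had an unadjusted p under 0.05, where 15.0%, 12.2% and 15.7% of all genes were lower at that p. Their log2 fold changes on the average ran from -0.11 for MT-ND4 to 0.16 for MT-ND5. In the plot of list medians by library they were at -0.20 and 0.25 in HMOX1si1, 0.37 and -0.42 in HMOX1si2, and -0.08 and 0.08 in siControl. Within each knockdown group, the library with the lower nuclear median thus had the higher mitochondrial one. In siControl both medians were higher in replicate 2. The mitochondrial subunits took 2.24% and 3.10% of all counts in HMOX1si1, 3.26% and 1.92% in HMOX1si2, and 2.49% and 2.76% in siControl. Within each knockdown group the mitochondrial medians were farther apart than the nuclear median on the average, -0.36, is from 0. A fall of that size could thus not be told from the spread between libraries. A difference between the nuclear and the mitochondrial subunits was not tested.

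Complex I is put together with the help of assembly factors that leave the finished enzyme. Of 19 tested, 3 fell on the average and none rose, with a median log2 fold change of -0.29. The 3 are 15.8% of the factors, where 4.93% of all genes were called lower and 5.16% higher. ACAD9, an acyl-CoA dehydrogenase that also serves in complex I assembly, had 42.9 and 42.0 CPM in HMOX1si1, 44.1 and 41.8 CPM in HMOX1si2, and 57.5 and 58.8 CPM in siControl. It fell with both siRNAs, with log2 fold changes of -0.45 ± 0.09 and -0.44 ± 0.09 and adjusted p of 0.0320 and 0.0458 by edgeR. COA1 and NDUFAF8 fell on the average, by 0.47 and 0.89 on the log2 scale, with adjusted p of 0.0410 and 0.0486 by edgeR. NDUFAF3 fell with HMOX1si2, with a log2 fold change of -0.51 and an adjusted p of 0.0494.

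Among the nuclear-encoded subunits of complexes II to V, 9 of 39 fell with HMOX1si1, 2 with HMOX1si2 and 5 on the average, and none rose. These are 23.1%, 5.13% and 12.8% of the list, where 5.01%, 2.67% and 4.93% of all genes were called lower. In the same order 39, 37 and 39 of the 39 were below 0 on the log2 scale, where 50.1%, 49.8% and 50.5% of all genes were. At an unadjusted p under 0.05, 69.2%, 30.8% and 69.2% were lower, where 15.0%, 12.2% and 15.7% of all genes were. DESeq2 called 25, 5 and 23 lower, where 9.21%, 6.53% and 9.25% of all genes were. The median log2 fold changes of this list were -0.51, -0.32 and -0.39, next to -0.44, -0.31 and -0.36 for complex I. UQCR11, a small subunit of complex III, fell in both comparisons with siControl, with 63.3 and 58.7 CPM in HMOX1si1, 65.4 and 76.5 CPM in HMOX1si2, and 100.5 and 105 CPM in siControl. COX7C, a subunit of complex IV, fell with HMOX1si2 and on the average, with log2 fold changes of -1.04 and -0.93 and adjusted p of 0.0494 and 0.0330 by edgeR. UQCR10 of complex III fell with HMOX1si1 and on the average, with -0.52 and -0.39. ATP5F1C, the gamma subunit of ATP synthase, fell with HMOX1si1, with -0.51 and an adjusted p of 0.0331.

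Of 13 regulators of mitochondrial biogenesis, 12 were tested. By edgeR 1 was called lower with HMOX1si1 and 1 on the average, 8.33% of the 12 each, where 5.01% and 4.93% of all genes were. DESeq2 called 1 lower in each of these contrasts, where 9.21% and 9.25% of all genes were. It called 1 higher with HMOX1si2, on the average and for HMOX1si2 minus HMOX1si1, where 975, 1362 and 723 of 13769 genes were. TFAM, which packages and transcribes mitochondrial DNA, had 21.4 and 19.2 CPM in HMOX1si1, 32.8 and 42.3 CPM in HMOX1si2, and 48.1 and 41.3 CPM in siControl. It fell with HMOX1si1, with a log2 fold change of -1.14 ± 0.16 and an adjusted p of 0.0151 by edgeR. With HMOX1si2 it had -0.25 ± 0.16 and 0.350, and the difference between the siRNAs, 0.89 ± 0.16, passed with an adjusted p of 0.0430. NRF1 and GABPA, factors known to act on promoters of respiratory-chain genes, had log2 fold changes of 0.16 and 0.07 on the average and were not called. PPARGC1A did not pass the filter on low counts.

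Promoters of respiratory-chain genes are known for sites of NRF1, ETS factors such as GABP, YY1 and SP1. Windows from 250 bases before to 50 after the start were taken from RefSeq (GRCh38.p14). These gave 32 of 36 subunits, with NDUFB5, NDUFB9, NDUFC2 and NDUFS5 not matched. The NDUFA5 window (chr7:123601602-123601901) lies upstream of and outside the GENCODE 29 gene (chr7:123536997-123558255, minus strand). It held no match and is kept in the counts. Both strands were searched for 1 word per factor. The windows of all genes are those of RefSeq genes on the primary chromosomes, a wider set that includes genes not tested here. The shares are thus not set against the genes tested. The NRF1 word GCATGCG was in 5 of 32 subunit windows (15.6%) and in 4.13% of 27305 windows of all genes, and the YY1 word AAGATGG was in 7 (21.9%) and 6.06%. The ETS word CCGGAAG was in 5 (15.6%) and 10.7%, and the SP1 word GGGCGG in 20 (62.5%) and 44.6%. These are matches of letters, not sites shown to be bound.

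The NRF1 matches are shown because most lie in a longer palindrome, with capitals on the word and, where it is there, the C before it. Each is written 5′ to 3′ on the strand of its gene.
NDUFS7, chr19:1383823-1383850, plus strand: ttccggtttcCGCATGCGctccgagccg
NDUFS6, chr5:1801352-1801379, plus strand: agaagccgtgCGCATGCGttagcgctaa
NDUFA8, chr9:122159765-122159792, minus strand: ttgccggatgCGCATGCGcaggcgccgt
NDUFB4, chr3:120596168-120596195, plus strand: gagcacttcgCGCATGCGcatatcaccg
NDUFA6, chr22:42090922-42090948, minus strand: ctgtagatgaGCATGCGcagcacccac
The subunits with an NRF1 match ran from NDUFS7 at -0.45 to NDUFA8 at -0.20 in log2 fold change on the average. None of the 5 was called by edgeR. DESeq2 called NDUFS7 and NDUFS6 lower with HMOX1si1 and NDUFS7 on the average, where 9.21% and 9.25% of all genes were.

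The YY1 word lay just after the start on the strand of the gene in all 7 subunits that held it, and it contains ATG. A first base within 30 bases after the start on that strand was found in 21.9% of subunit windows and in 1.57% of all windows. This limit was not part of the planned search, and it takes in all 7, which begin 11 to 26 bases after the start. The limit thus widens the gap from the 6.06% of all windows with the word anywhere, and the 2 shares are no separate support. The 7 are shown with the word in capitals.
NDUFS7, chr19:1383914-1383940, plus strand: ggccgaggccAAGATGGcggtgctgtc
NDUFS4, chr5:53560650-53560676, plus strand: tgcctgcagcAAGATGGcggcggtgtc
NDUFA3, chr19:54102866-54102892, plus strand: cgcggagacaAAGATGGctgcgagtaa
NDUFA6, chr22:42090731-42090757, minus strand: atgctttggcAAGATGGcggggagcgg
NDUFA7, chr19:8321345-8321371, minus strand: tcgcggacggAAGATGGcgtccgccac
NDUFA9, chr12:4649114-4649140, plus strand: attgtgggaaAAGATGGcggctgccgc
NDUFA12, chr12:95003667-95003693, minus strand: ccagcgaggcAAGATGGagttagtgca
NDUFS7 and NDUFA6 held both words. None of the 7 was called by edgeR, and their log2 fold changes on the average ran from -0.45 for NDUFS7 to -0.08 for NDUFS4. DESeq2 called NDUFS7 lower with HMOX1si1, and NDUFS7 and NDUFA7 on the average, where 9.21% and 9.25% of all genes were.

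Subunits differ in level, and levels were set side by side only per length, as CPM per kilobase of transcript (median length of the protein-coding transcripts in GENCODE 29). In siControl the highest were NDUFS5 with 207 ± 21.8, NDUFC2 with 152 ± 11.5 and NDUFB7 with 131 ± 15.1 (SD, n = 2). The lowest were NDUFV3 with 9.20 ± 0.40, NDUFA9 with 16.3 ± 1.66 and NDUFA5 with 17.7 ± 1.21. Between NDUFC2 and NDUFB7 the gap is smaller than the sum of their SDs, as it is between NDUFA9 and NDUFA5. The annotated lengths of NDUFA9 (4502.5 bases) and NDUFV3 (3125.5 bases) are the longest of the 36, and a shorter transcript in use would raise their levels on this scale.

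**Figure D4:**
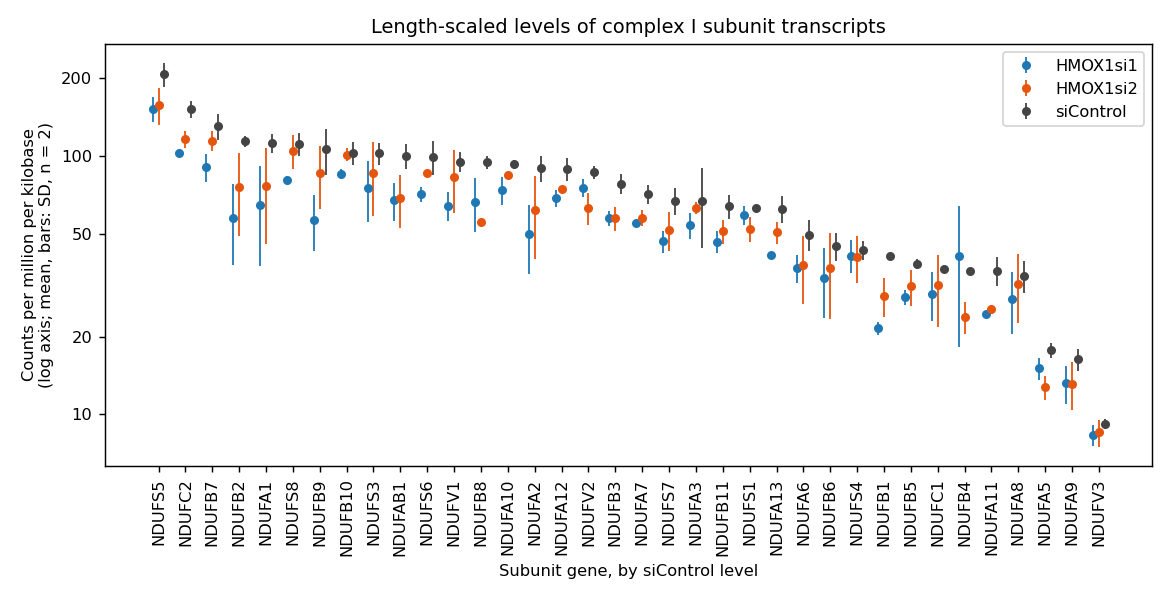
Level of each subunit as CPM per kilobase of transcript (vertical log axis; means of 2 libraries, bars are SD) in HMOX1si1, HMOX1si2 and siControl, ordered by the siControl level. The knockdown means lie at or below the siControl mean across the whole range of levels, except for NDUFB4 with HMOX1si1.

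Subunit transcripts are short, with a median of 763.5 bases against 2492 bases for all genes tested with a length, and fold changes moved with length over all genes. On the average of both siRNAs the median log2 fold change was -0.24 over the 1208 genes of up to 1000 bases, -0.10 from there to 2000 bases, 0.02 from there to 4000 bases and 0.15 above that. The 25 subunits of up to 1000 bases had a median of -0.35, and the 7 of over 1000 and up to 2000 bases had -0.38. By library, the genes of up to 1000 bases were at -0.22 and -0.33 in HMOX1si1, -0.28 and -0.14 in HMOX1si2, and -0.08 and 0.08 in siControl. The libraries thus fell in the same order for short genes as for the subunits. The part of transcript length in the subunit changes was not tested.

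**Figure D5:**
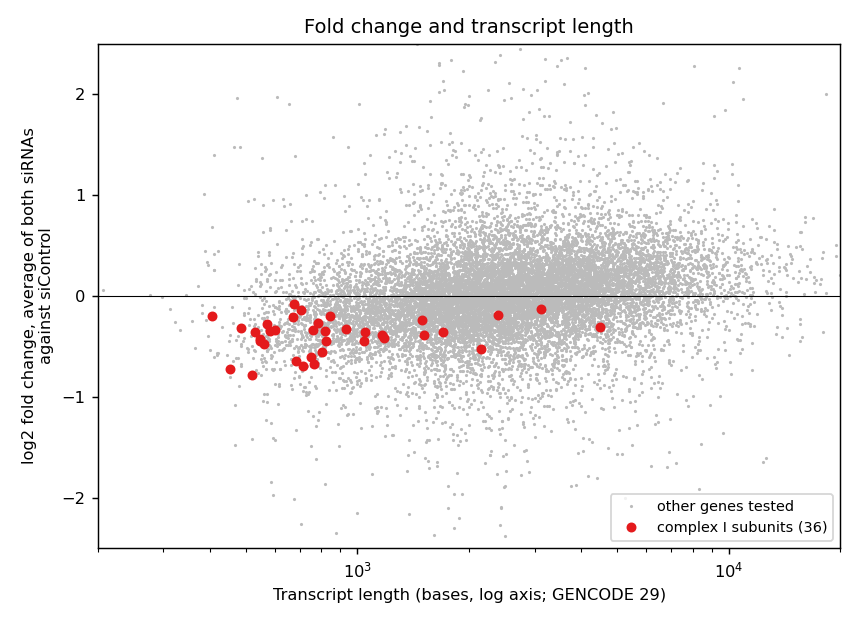
Log2 fold change on the average of both siRNAs against siControl (vertical axis) by transcript length in bases (horizontal log axis), with the 36 subunits over the other genes tested (73 genes lie outside the axes). The subunits sit at the short end and below 0, where the 1208 genes of up to 1000 bases have a median of -0.24 and the 25 subunits among them -0.35.

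Counts of overlapping genes can be divided between gene models. By GENCODE 29, 17 of the 36 subunits share exons with another gene, and 6 have a same-strand readthrough model that joins them to a neighbour, among them NDUFA11, NDUFA13, NDUFB8 and NDUFC2. The model over NDUFB8 held 203 and 158 counts in HMOX1si1, 206 and 1058 counts in HMOX1si2, and 304 and 1177 counts in siControl, so it swung within groups. With the counts of the models added, the calls of NDUFB8 and NDUFA13 were lost, as given with their values above. The summed NDUFA11 and NDUFC2 remained called by edgeR with HMOX1si1, at adjusted p of 0.0374 and 0.0313, and on the average, at 0.0298 and 0.0316.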

How the data were processed

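Polyadenylated RNA of AsPC-1 cells was read in 6 libraries, 2 per group. The deposited values, as the authors made them, are treated here to be estimated counts (expected counts) per gene, a unit inferred from the values, with the aligner, counter and strand setting not given in the sources used here, and the submitters' processing notes name a mouse genome build, whereas the gene identifiers are human. Values were already whole, so rounding changed nothing. Values from 1 to 10 were even in 71.9% of cases and those over 100 in 49.9%, so the values do not settle how fragments were counted, which bears on precision. No column was left unused.

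A symbol was matched for 20148 of 20263 identifiers. In R 4.3.3, edgeR 4.0.16 (limma 3.58.1) kept 13769 genes with filterByExpr (minimum count 10), scaled by TMM and fitted 1 mean per group over all 6 libraries with the quasi-likelihood test. Adjusted p-values are Benjamini-Hochberg over all genes tested, with a threshold of 0.05. Standard errors were derived from the log2 fold change and the F statistic (their ratio, after the root of F is taken). CPM use TMM library sizes, and a prior count of 2 on the log2 scale. The biological coefficient of variation common to all genes was 0.165. Alternatives were DESeq2 1.42.0, other scalings, no filter, a replicate block, only the groups compared, and each library left out. Coordinates, lengths and overlaps are from GENCODE 29 (GRCh38), which may not be the annotation used for counting.

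The 36 members, the roles and all lists were chosen with earlier results of these data known, so they get no set test. Named in full are subunits past the threshold in any contrast, the 6 core subunits and the 4 with the smallest mean unadjusted p among the rest. Of each other list, up to 4 called genes are named.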

Additional observations from a re-analysis of the deposited data

How the results depend on the processing

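Under 15 alternatives, counts of called subunits kept within 1.5 times of those reported in 38 cases, with 15 lower and 6 higher. A count of 0 that stayed 0 is among the 38, as in every case of HMOX1si2 minus HMOX1si1. Lower counts were possible only in the contrasts with 4 calls, so the 38 do not measure how well those calls held. Apart from DESeq2, the share of all genes called is mostly not given beside these counts. With HMOX1si1 (4 called), DESeq2 called 14, a replicate block 1 (NDUFB9), and leaving out 1 library at a time 0 to 4. With HMOX1si2 (0 called, 10 at an unadjusted p under 0.05), DESeq2 called 7, the fit with no filter 1 and the fit of only the groups compared 1 (NDUFB8 in both). On the average (4 called), DESeq2 called 13, the replicate block 1 (NDUFB9), and leaving out 1 library 0 to 10. For HMOX1si2 minus HMOX1si1 every alternative called 0, with 1 to 5 at an unadjusted p under 0.05. The labels do not say whether equal replicate numbers pair the samples. Deviations over all genes correlated at -0.15 between HMOX1si1 and HMOX1si2 and at 0.01 and 0.03 with siControl. These gave no sign of pairing but, with 2 libraries per group, cannot exclude it. Crossed numbers for HMOX1si2, added after seeing the data, gave a block with 2 calls with HMOX1si1, 2 on the average and 0 in both other contrasts. Without replicate 2 of HMOX1si1 and replicate 1 of HMOX1si2 together, also added afterwards, edgeR called 0 in each contrast, with 4 to 19 at an unadjusted p under 0.05, and a lone library is then assumed to vary like the other groups.

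Median log2 fold changes moved by less than the SD between replicates in 57 cases, by more in 1 and turned sign in 1. Leaving out 1 library gave -0.56 to -0.33 with HMOX1si1, -0.49 to -0.21 with HMOX1si2, -0.47 to -0.26 on the average and -0.046 to 0.25 for HMOX1si2 minus HMOX1si1, the last with the sign turned without replicate 2 of HMOX1si2. With HMOX1si2, leaving out 1 library gave NDUFS8 -0.25 to 0.058 (0.02 without replicate 2 of siControl, 0.058 without replicate 2 of HMOX1si2), NDUFS3 -0.62 to 0.04 and NDUFV1 -0.51 to 0.05, these turned without replicate 1 of HMOX1si2. Without both libraries above, NDUFS3 had 0.038 and NDUFV1 0.053. The cause was not tested. With 2 libraries per group, the SD between replicates of the subunit median was 0.152 (log2), and the spread between libraries limits single subunits more than their depth.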

Other observations

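Ribosomal protein genes were set beside the subunits. Of 79 cytosolic ribosomal protein genes tested, 4 fell and 1 rose on the average of both siRNAs, with a median log2 fold change of -0.32. The 4 are 5.06% of the list, near the 4.93% of all genes called lower. On the average 75 of the 79 were below 0 on the log2 scale, where 50.5% of all genes were. At an unadjusted p under 0.05, 49.4% were lower, against 15.7% of all genes, and DESeq2 called 23 lower, against 9.25%. At that unadjusted p, 58.2% were lower with HMOX1si1 and 11.4% with HMOX1si2, against 15.0% and 12.2% of all genes. The complex I subunits had 58.3% and 27.8%. RPS16, of the small subunit, fell with HMOX1si1, with a log2 fold change of -1.71 and an adjusted p of 0.0106 by edgeR, and had -0.38 and 0.275 with HMOX1si2. The difference between the siRNAs passed for RPS16, with 1.33 and an adjusted p of 0.0279. RPS25 and RPL27A fell with HMOX1si1, with -0.49 each. RPL26L1, a paralogue of RPL26, rose on the average, with 0.57 and an adjusted p of 0.0439. Of 78 mitochondrial ribosomal protein genes, 4 fell and none rose on the average, with a median of -0.23. The 4 are 5.13% of the list, again near the share over all genes. On the average 62 of the 78 were below 0, where 50.5% of all genes were. At an unadjusted p under 0.05, 29.5% were lower, against 15.7% of all genes, and DESeq2 called 12 lower, against 9.25%. MRPL57 fell with both siRNAs, with -0.51 and -0.59, and MRPS6 fell with HMOX1si2, with -0.87. MRPS10 rose with HMOX1si1, with 0.39. MRPL34 was called for HMOX1si2 minus HMOX1si1, with -1.45 and an adjusted p of 0.0331. Counts of genes with near-identical copies can be divided between copies. Whether the complex I subunits differed from either list was not tested.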
